A study of Mus musculus with 12 samples.

Results

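The proprotein convertases are a family of subtilisin-like serine proteases, and their 8 genes described here are Pcsk1, Pcsk2, Furin, Pcsk4, Pcsk5, Pcsk6, Pcsk7 and Mbtps1. They were taken by gene name, matched to the Ensembl identifiers of the expression table, and make up 8 of its 17416 genes. Transcripts were measured by RNA-seq in the lateral habenula, a small epithalamic nucleus that signals aversive outcomes to midbrain monoamine neurons. All 12 libraries came from C57BL/6 mice aged 9 weeks: 4 susceptible and 4 resilient ones, named for their response to social defeat stress, and 4 non-defeated ones. The nucleus was punched from slices of 500 µm, and 100 pg of RNA was amplified for each library. No transgene or injected agent is given for any group in the labels. The title of the series names a convertase and the extracellular matrix, so the question asked of each gene was whether its transcript level in the habenula differs with the outcome of social defeat.

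Convertases are made as inactive precursors, cut off their own prodomain, and then cleave other precursors on the carboxyl side of basic residues as these pass through the secretory pathway. Pcsk1 and Pcsk2 work in the dense-core granules of neurons and endocrine cells and release neuropeptides from their precursors. Furin, Pcsk5, Pcsk6 and Pcsk7 act in the trans-Golgi network, in endosomes or at the cell surface on growth factors, receptors, adhesion proteins and matrix proteases. Pcsk4 is known mainly from germ cells. Mbtps1, the site-1 protease, sits in the Golgi, cuts after non-basic residues and releases membrane-bound transcription factors such as the SREBPs and ATF6.

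The libraries held 33.3 M to 47.7 M reads (M, 1000000 reads), and single convertase genes had from 69 reads (Pcsk4, non-defeated replicate 3) to 7152 reads. Levels are in CPM, reads per 1000000 reads, scaled by trimmed means (TMM). Lateral habenula markers, 6 of 6 in the table, summed to 1630 to 2029 CPM in susceptible, 1243 to 2289 CPM in resilient and 1621 to 1991 CPM in non-defeated libraries. Medial habenula markers, 9 of 9, were also present, at 942 to 1287, 726 to 1263 and 922 to 1458 CPM in the same order of groups. Of the 9, 8 had a negative fold change in susceptible and 7 in resilient over non-defeated mice. Of the summed levels of 14 marker lists, only that of blood separated groups: 5 of its 6 markers had values, and they summed to 871 to 5680 CPM in susceptible and 1030 to 2071 CPM in resilient libraries, against 263 to 825 CPM in non-defeated ones. Resilient replicate 4 stood apart in endothelial markers, at 169 CPM, and in mural and fibroblast markers, at 154 CPM. It also had the lowest lateral habenula sum, 1243 CPM. The titles carry a letter, H or N, whose meaning the labels do not give: all non-defeated libraries are H, all resilient ones N, and susceptible replicates 1 and 2 are H and 3 and 4 are N. Letter and group can therefore not be told apart between resilient and non-defeated mice. In bulk tissue, fewer cells of a type and less RNA per cell cannot be told apart either.

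The bases before the transcription start site differ much between convertases, and 3 stretches of 250 bases are shown: that of Pcsk5, whose transcript differed most between groups, and those of the granule convertases Pcsk1 and Pcsk2, for contrast. They are the upstream parts of RefSeq promoter windows on GRCm38.p6, written 5′ to 3′ on the gene's strand, at chr19:17837633-17837882 (minus strand, Pcsk5), chr13:75089607-75089856 (plus strand, Pcsk1) and chr2:143545883-143546132 (plus strand, Pcsk2). The start sites are those of RefSeq and can differ from the GENCODE gene starts given for each gene below. By the GENCODE start of Pcsk1, 75089826, the last bases of its stretch lie inside the gene. Capitals mark GC boxes (GGGCGG on either strand), which are bound by Sp-family factors, and the cAMP response element (CRE, TGACGTCA).
Pcsk5: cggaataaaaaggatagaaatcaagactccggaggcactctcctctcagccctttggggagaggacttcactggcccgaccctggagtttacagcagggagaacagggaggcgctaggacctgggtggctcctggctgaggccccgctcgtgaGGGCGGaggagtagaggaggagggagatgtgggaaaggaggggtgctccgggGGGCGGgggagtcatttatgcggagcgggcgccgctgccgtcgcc
Pcsk1: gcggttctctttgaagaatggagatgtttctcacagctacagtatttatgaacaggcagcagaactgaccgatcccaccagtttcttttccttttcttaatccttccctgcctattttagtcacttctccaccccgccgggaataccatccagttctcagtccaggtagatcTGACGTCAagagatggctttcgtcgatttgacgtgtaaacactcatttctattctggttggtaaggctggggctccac
Pcsk2: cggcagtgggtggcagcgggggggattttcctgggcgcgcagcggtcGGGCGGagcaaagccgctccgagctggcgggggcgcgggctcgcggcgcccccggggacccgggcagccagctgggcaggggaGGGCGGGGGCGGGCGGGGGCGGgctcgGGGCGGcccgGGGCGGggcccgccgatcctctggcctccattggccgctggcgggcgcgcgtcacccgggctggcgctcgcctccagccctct
The Pcsk5 stretch held 2 GC boxes and 15 CpG dinucleotides, with 64% of its bases G or C. Pcsk2 was far richer, with 7 GC boxes, some of them overlapping, 35 CpG and 82.4% G or C. Pcsk1 was the poorest of the 3, with 0 GC boxes, 8 CpG and 46.8% G or C, and it held the 1 CRE found among the members. Over all 32851 windows of this length, the median was 52.4% G or C and 6 CpG, 32.7% held a GC box and 1.55% a CRE. Windows of 7 of the 8 members were listed, the exception being Pcsk4. Pcsk6, Pcsk7 and Mbtps1 held 2, 3 and 1 GC boxes. Furin had 2 windows, 1 with 2 GC boxes and 1 with none but with a TATAAA box, which 12.4% of all windows hold. By GENCODE, the Pcsk6 window and the Furin window with GC boxes lie inside the gene, and the Pcsk7 window partly so. The AP-1 motif TGANTCA, held by 6.75% of all windows, was found in no member's window. A match is a run of letters and does not show that a factor binds there.

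Levels between genes were compared per kilobase of merged exons, averaged over the 12 libraries. Pcsk2, which makes opioid and other small neuropeptides, was the most abundant convertase at 15.2 ± 2.96 CPM per kilobase (SD, n = 12), above 79.1% of the 17097 genes with a length. Mbtps1 followed at 8.88 ± 1.87 and Pcsk7 at 4.42 ± 1.72 CPM per kilobase. Pcsk2 lay above Mbtps1, and Mbtps1 above Pcsk7, in 12 of 12 libraries, although over all libraries the ranges of neighbours overlapped. These 3 genes made up 41.0%, 23.9% and 11.9% of the convertases' summed level.

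Pcsk1 stood at 2.96 ± 0.877 and Pcsk4 at 2.49 ± 1.01 CPM per kilobase, and Pcsk1 was the higher of the 2 in 7 of 12 libraries, so their order was not stable. Pcsk6, Furin and Pcsk5 came last, at 1.22 ± 0.535, 1.10 ± 0.492 and 0.824 ± 0.515 CPM per kilobase (SD, n = 12). Pcsk5 was thus the scarcest convertase per length, above only 24.4% of genes. The order of these last 3 is not firm, since Pcsk6 lay above Furin in 5 and Furin above Pcsk5 in 7 of 12 libraries. With the longest transcript as length in place of merged exons, the top 5 kept their places and the last 3 became Furin, Pcsk5 and Pcsk6, at 1.76, 1.66 and 1.44 CPM per kilobase.

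**Figure D1:**
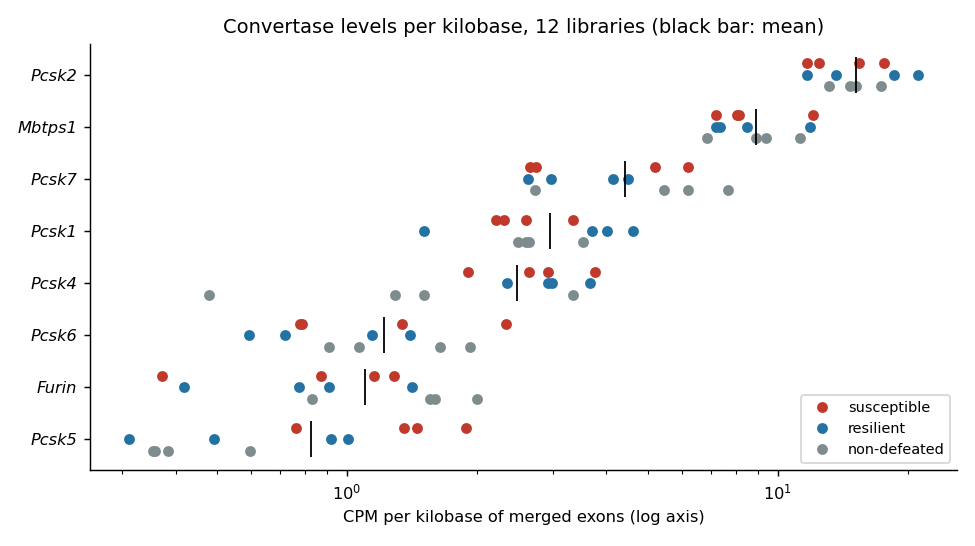
Level of each convertase gene in CPM per kilobase of merged exons (x axis, logarithmic), one point per library, coloured by group, with a black bar at the mean of the 12 libraries. Pcsk2 and Mbtps1 lie highest, and Pcsk5 is the gene whose susceptible points, at the right, are parted from the non-defeated ones at the left.

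The group means of the summed convertase level differed by less than their SD, at 36.4 ± 6.29 CPM per kilobase in susceptible, 37.5 ± 6.74 in resilient and 37.5 ± 2.18 in non-defeated libraries (SD, n = 4 each). Pcsk2 alone gave 39.2 ± 1.82%, 42.9 ± 4.15% and 40.6 ± 7.09% of it in the same order of groups. Pcsk5 gave 3.74 ± 1.14% in susceptible, 1.98 ± 1.24% in resilient and 1.13 ± 0.274% in non-defeated libraries (SD, n = 4 each). The susceptible shares, 2.48% to 5.12%, lay above all non-defeated shares, 0.952% to 1.53%, and overlapped the resilient ones, 0.687% to 3.38%.

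**Figure D2:**
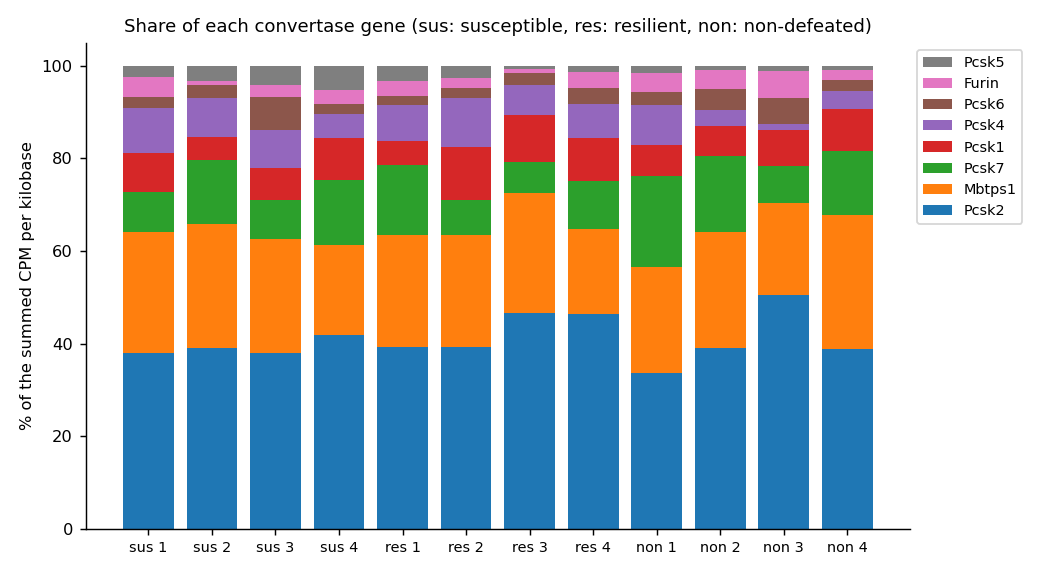
Share of each convertase gene in the summed CPM per kilobase (y axis, %) of each of the 12 libraries (x axis), stacked from the most to the least abundant gene. Pcsk2 and Mbtps1 fill more than any other genes in every bar, and the Pcsk5 segment at the top is thickest in susceptible replicate 4, at 5.12%.

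Pcsk5 was the convertase with the largest difference between groups. It cleaves growth factor, adhesion and matrix precursors, and is made as a soluble and as a membrane-bound form, which a gene level does not separate. The gene (ENSMUSG00000024713) spans chr19:17432319-17837632 on the minus strand of GRCm38, with 40 merged exons that share no base with another gene's exons. Pcsk5 had 10.99, 21.0, 19.6 and 27.3 CPM in susceptible libraries, 14.5, 13.2, 4.51 and 7.11 CPM in resilient libraries, and 8.60, 5.17, 5.12 and 5.55 CPM in non-defeated libraries. The 4 susceptible values all lay above the 4 non-defeated ones. Resilient replicates 1 and 2 lay above every non-defeated library, replicate 3 below every one and replicate 4 among them. The lowest susceptible library, replicate 1, lay among the resilient ones.

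The means were 19.7 ± 6.71 CPM in susceptible, 9.85 ± 4.81 CPM in resilient and 6.11 ± 1.67 CPM in non-defeated libraries (SD, n = 4 each), a ratio of 3.23 between susceptible and non-defeated means and of 2.002 between susceptible and resilient means. Fold changes are given as log2 of (CPM + 1), which understates differences of scarce genes, with limma's SE. For Pcsk5 they were 1.50 ± 0.38 for susceptible over non-defeated, 0.51 ± 0.38 for resilient over non-defeated and 0.99 ± 0.38 for susceptible over resilient mice. None passed over the 17111 genes tested (limma, adjusted p = 0.998, 0.899 and 0.9996). The unadjusted limma p was 0.00149, 0.200 and 0.0214, and susceptible against non-defeated ranked Pcsk5 16th of all genes by p. A fold change at least as large in either direction was reached by 0.356% of genes in that comparison, 19.0% in resilient over non-defeated and 2.89% in susceptible over resilient mice. Over the 3 groups at once the limma p was 0.00480 and the adjusted p 0.820.

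Other tests put Pcsk5 at a like size and also outside the threshold of 0.05. DESeq2 on recovered reads gave a log2 fold change of 1.69 ± 0.43 (SE) for susceptible over non-defeated mice, with an adjusted p of 0.0595, and 0.0946 over the 3 groups. The quasi-likelihood test of edgeR gave 1.69 with an adjusted p of 1. In the authors' deposited table, Pcsk5 had log2 ratios of 1.68, 0.68 and 1.008 for the 3 comparisons and an FDR of 0.164 over the 3 groups, while the other 7 convertases had an FDR of 1. An FDR under 0.05 was deposited for 0.293% of genes.

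Title letter and group cannot be told apart between resilient and non-defeated mice, so Pcsk5 is also given by letter. Among H libraries, Pcsk5 lay at 10.99 and 21.0 CPM in susceptible and 5.12 to 8.60 CPM in non-defeated mice. Among N libraries, it lay at 19.6 and 27.3 CPM in susceptible and 4.51 to 14.5 CPM in resilient mice. Within 1 letter the susceptible libraries were thus above the others in both cases, at a log2 fold change of 1.22 ± 0.44 over non-defeated and 1.28 ± 0.49 over resilient mice (SE). With the letter as a term, resilient over non-defeated mice turned to -0.06 ± 0.66 (SE), beside 0.51 ± 0.38 without it. In that fit only the susceptible libraries hold both letters, so it cannot decide between letter and group.

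Blood markers were also higher in susceptible than in non-defeated libraries, and their part in the Pcsk5 difference was not tested. Their sums were 5680, 871, 1041 and 1735 CPM in susceptible replicates 1 to 4, and the library with the most blood RNA, replicate 1, had the lowest Pcsk5 level of the 4. In resilient libraries the blood sums, 1030 to 2071 CPM, lay above all non-defeated ones too, while Pcsk5 overlapped between those groups.

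Each mouse had an interaction ratio from a social avoidance test in the deposited behaviour sheet. It was 0.69, 0.63, 0.13 and 0.55 in susceptible, 1.18, 1.08, 1.20 and 2.24 in resilient and 1.26, 1.84, 1.12 and 1.57 in non-defeated mice. The authors' deposited table gives a correlation of -0.707 between Pcsk5 and this ratio, with p = 0.0102, but the susceptible ratios form a cluster of their own, so it was not read as a relation within groups. Within the 8 resilient and non-defeated mice, Pearson's r was -0.363 (exact permutation p = 0.387, two-sided) and Spearman's rho -0.190 (exact permutation p = 0.665). Without the 2 mice farthest from the median ratio, resilient replicate 4 and non-defeated replicate 2, r was -0.398. This was the 1 relation computed, and with 4 mice the susceptible cluster was too small for one.

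**Figure D3:**
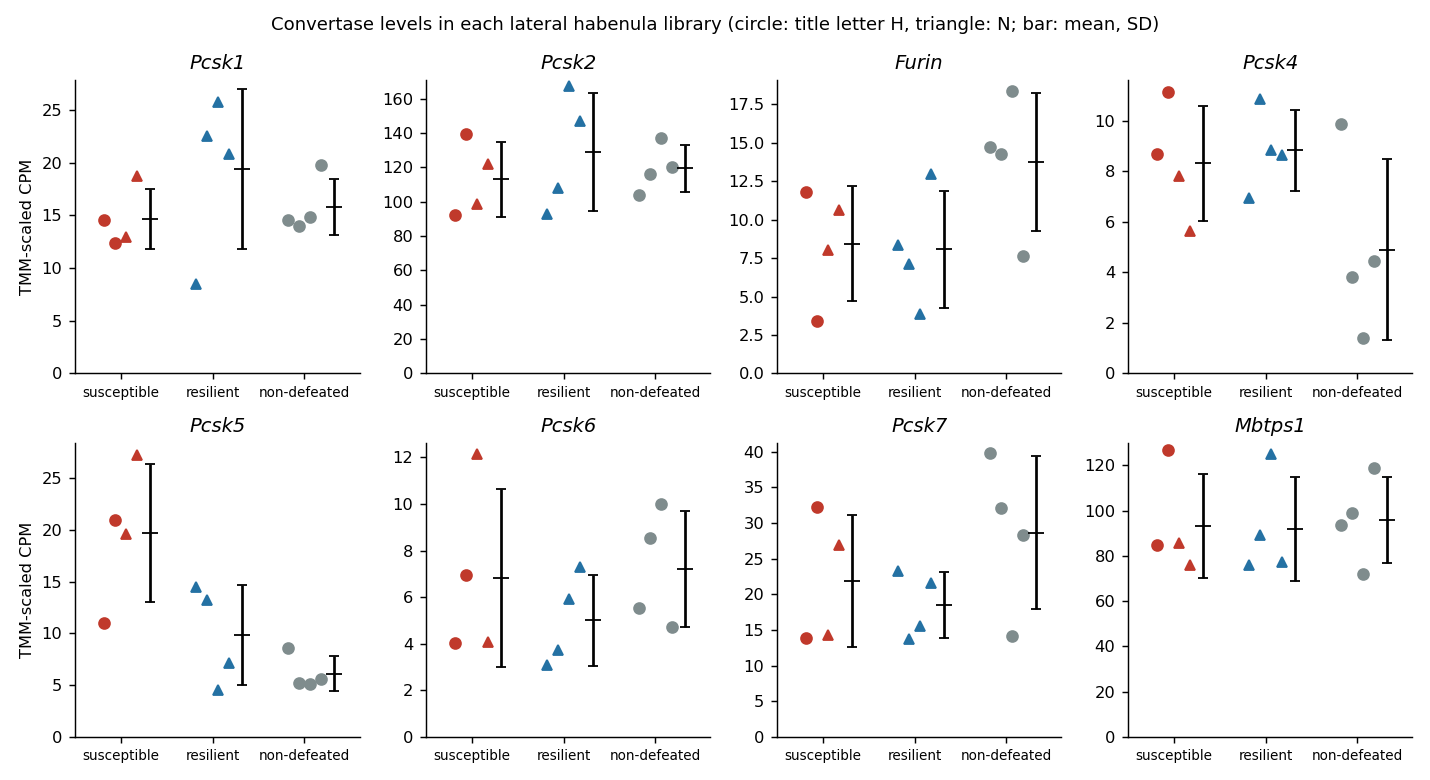
Level of each convertase gene in TMM-scaled CPM (y axis, from 0) in susceptible, resilient and non-defeated libraries (x axis), one point per library, circles for title letter H and triangles for N, with the mean and SD of each group. The 4 susceptible Pcsk5 points, 10.99 to 27.3 CPM, sit above the 4 non-defeated ones, 5.12 to 8.60 CPM, and the groups overlap for every other gene.

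The granule convertases Pcsk1 and Pcsk2 overlapped between all groups. Pcsk1 (chr13:75089826-75134861, plus strand), which makes the first cuts in most neuropeptide precursors, had 14.6, 12.4, 13.0 and 18.7 CPM in susceptible, 8.47, 22.5, 25.8 and 20.8 CPM in resilient and 14.5, 13.996, 14.8 and 19.8 CPM in non-defeated libraries. Of the resilient libraries 3 lay above every non-defeated one and replicate 1 below every one. That gave the resilient group the widest spread, 19.4 ± 7.56 CPM, against 14.7 ± 2.85 CPM in susceptible and 15.8 ± 2.67 CPM in non-defeated libraries (SD, n = 4 each). The log2 fold changes were -0.10 ± 0.32, 0.19 ± 0.32 and -0.29 ± 0.32 (SE) for susceptible over non-defeated, resilient over non-defeated and susceptible over resilient mice, all smaller than their SE, and the resilient value turned to -0.0074 with the title letter as a term.

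Pcsk2 (chr2:143546156-143816285, plus strand), which trims peptides further in mature granules, had 92.3, 139, 98.5 and 122 CPM in susceptible, 92.6, 108, 167 and 147 CPM in resilient and 104, 116, 137 and 120 CPM in non-defeated libraries. Each group spanned much of the range of the others. Its log2 fold changes, -0.09 ± 0.20, 0.08 ± 0.20 and -0.17 ± 0.20 (SE), were again smaller than their SE. Exons of the antisense genes Pcsk2os1 and Pcsk2os2 overlap those of Pcsk2 over 359 bases. The use of strand in counting is not given in the sources used here, so reads in that stretch may belong to either.

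Furin, the ubiquitous convertase of the trans-Golgi network, lay lower on average in both defeated groups. It (chr7:80388585-80405436, minus strand) had 11.8, 3.41, 7.996 and 10.6 CPM in susceptible, 8.33, 7.11, 3.83 and 13.0 CPM in resilient and 14.7, 14.3, 18.3 and 7.61 CPM in non-defeated libraries. Non-defeated replicates 1, 2 and 3 lay above every defeated library, and replicate 4 lay among them. The means were 8.45 ± 3.71, 8.06 ± 3.78 and 13.7 ± 4.47 CPM in that order of groups (SD, n = 4 each). The log2 fold changes were -0.69 ± 0.42 for susceptible and -0.74 ± 0.42 for resilient over non-defeated mice (SE), neither past the threshold (limma, adjusted p = 0.998 and 0.800). These 2 comparisons share the non-defeated libraries, and with the title letter as a term the resilient value was -1.19. Between susceptible and resilient mice it was 0.05 ± 0.42. Gm44851 overlaps Furin exons on the opposite strand over 118 bases.

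Pcsk7, a transmembrane convertase of the trans-Golgi network, followed the same order of means without parting the groups. Pcsk7 (chr9:45906497-45929726, plus strand) had 13.8, 32.2, 14.3 and 26.9 CPM in susceptible, 23.3, 13.7, 15.5 and 21.5 CPM in resilient and 39.8, 32.1, 14.2 and 28.3 CPM in non-defeated libraries. Libraries near 14 CPM and libraries above 20 CPM occurred in every group. The log2 fold changes were -0.38 ± 0.35, -0.55 ± 0.35 and 0.17 ± 0.35 (SE) for susceptible over non-defeated, resilient over non-defeated and susceptible over resilient mice. Rnf214 and Tagln overlap Pcsk7 exons on the opposite strand over 523 bases.

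Pcsk6, which binds the matrix through its cysteine-rich end and cleaves Nodal-like growth factors, was scarce and variable. Pcsk6 (chr7:65861734-66050386, plus strand) had 4.03, 6.96, 12.2 and 4.09 CPM in susceptible, 3.07, 3.73, 5.92 and 7.28 CPM in resilient and 5.53, 8.53, 10.002 and 4.72 CPM in non-defeated libraries. The highest library of all was susceptible replicate 3 and the lowest resilient replicate 1, and the groups overlapped. The log2 fold changes were -0.14 ± 0.40, -0.46 ± 0.40 and 0.32 ± 0.40 (SE), and the resilient value over non-defeated mice was -0.83 with the title letter as a term. Gm45213 shares 156 exon bases with Pcsk6 on the same strand.

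Pcsk4, the germ-cell convertase, was present in all libraries and lay higher on average in both defeated groups. Pcsk4 (chr10:80321283-80329498, minus strand) had 8.68, 11.1, 7.83 and 5.64 CPM in susceptible, 6.96, 10.9, 8.86 and 8.65 CPM in resilient and 9.90, 3.83, 1.41 and 4.46 CPM in non-defeated libraries. Non-defeated replicates 2, 3 and 4 lay below every defeated library, and replicate 1 among the highest. The means were 8.32 ± 2.27, 8.83 ± 1.60 and 4.90 ± 3.58 CPM in that order of groups (SD, n = 4 each). The log2 fold changes were 0.83 ± 0.41 for susceptible and 0.92 ± 0.41 for resilient over non-defeated mice (SE), neither past the threshold (limma, adjusted p = 0.998 and 0.666), with -0.10 ± 0.41 between susceptible and resilient mice. Both comparisons with non-defeated mice rest on the same 4 libraries, and with the title letter as a term the resilient value was 1.42.

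Mbtps1, the site-1 protease, averaged 93.2 ± 22.9 CPM in susceptible, 91.8 ± 22.9 CPM in resilient and 95.8 ± 19.1 CPM in non-defeated libraries (SD, n = 4 each). Mbtps1 (chr8:119508156-119558735, minus strand) had 84.7, 127, 85.5 and 75.8 CPM in susceptible, 75.8, 89.1, 125 and 77.3 CPM in resilient and 93.5, 98.7, 72.1 and 119 CPM in non-defeated libraries. Each group had a library near 75 CPM and 1 near 120 CPM. Its log2 fold changes were -0.04 ± 0.22, -0.07 ± 0.22 and 0.02 ± 0.22 (SE), and each turned with the title letter as a term, to 0.14, 0.29 and -0.16.

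Taken over the 8 genes, susceptible over non-defeated mice gave 2 positive and 6 negative fold changes with a median of -0.10, where all genes tested had a median of 0.01 and 52.2% positive. Of the 8, 0 passed the adjusted limma threshold, as did 0% of all genes, 1 (Pcsk5) had an unadjusted limma p under 0.05, against 3.54% of all genes, and 1 (Pcsk5) had susceptible libraries wholly above non-defeated ones, against 1.11% of all genes (2.22% parted in either direction). In resilient over non-defeated mice, 4 were positive and 4 negative with a median of 0.00, beside 0.02 over all genes. Of these 0 passed, against 0.00584% of all genes, 1 (Pcsk4) had an unadjusted limma p under 0.05, against 7.14%, and 0 parted the groups, against 3.66%.

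In susceptible over resilient mice, 5 convertases were positive and 3 negative with a median of 0.04, beside -0.02 over all genes. Of the 8, 0 passed the adjusted limma threshold, against 0.0468% of all genes, 1 (Pcsk5) had an unadjusted limma p under 0.05, against 3.51%, and 0 parted the groups, against 2.45% of all genes, 1.42% with susceptible and 1.03% with resilient libraries higher. By edgeR 0 of the 8 passed as well in each comparison, and by DESeq2 0 of the 8, against 0.135%, 0.516% and 0.223% of all genes in the 3 comparisons. A single gene of 8 is too few to be set against these shares as a result about the family.

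**Figure D4:**
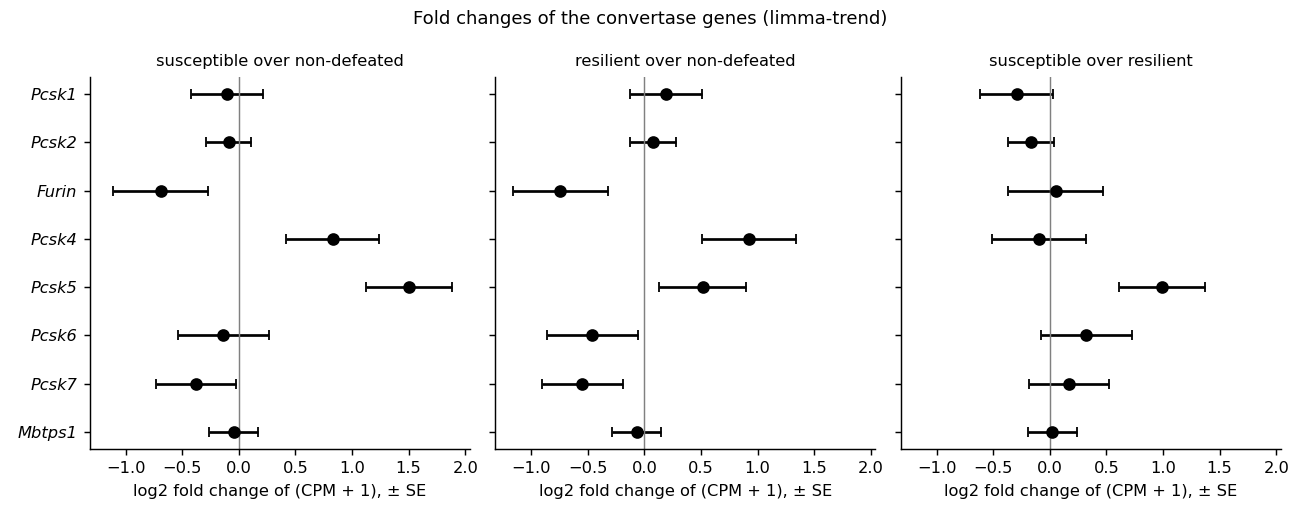
Log2 fold change of (CPM + 1) with limma's SE (x axis) for each convertase gene (y axis) in susceptible over non-defeated, resilient over non-defeated and susceptible over resilient mice. Pcsk5 stands farthest to the right in the first and last panel, at 1.50 and 0.99, and Furin lies left of 0 in the first 2 panels.

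Genes that work with the convertases were followed in 11 lists of 166 genes, of which 158 were tested, and 0 passed the limma threshold in any comparison. The unadjusted limma p was under 0.05 for 4 of them in susceptible over non-defeated, 5 in resilient over non-defeated and 8 in susceptible over resilient mice, against 3.54%, 7.14% and 3.51% of all genes. By edgeR 0 passed. By DESeq2 2 of the 158, Acan and Pthlh, passed in susceptible over non-defeated mice, against 0.135% of all genes. In resilient over non-defeated mice 2, Tac2 and Pthlh, passed by DESeq2, against 0.516%. Pthlh is named only because it passed there. Of the 5 chaperones and inhibitors, 3 were positive in each comparison, and the medians were 0.14, 0.12 and 0.03 for susceptible over non-defeated, resilient over non-defeated and susceptible over resilient mice. Pcsk1n, whose product proSAAS inhibits the Pcsk1 enzyme, stood at 0.26 ± 0.27 and Gbp2, reported to inhibit furin in human cells, at -1.15 ± 0.47 (SE) for susceptible over resilient mice. Gbp2 was scarce, with 1, 0, 70 and 0 reads in susceptible and 62, 38, 150 and 87 reads in resilient libraries. It did not pass (limma, adjusted p = 0.9996).

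Enzymes that finish neuropeptides and the granule proteins that carry them had list medians between -0.16 and 0.23, with single genes from -0.92 to 0.67. Of 7 trimming and amidating enzymes 6 were tested, with medians of 0.23, 0.16 and 0.11, and the Golgi carboxypeptidase Cpd stood at 0.67 ± 0.42 in resilient over non-defeated mice (SE) and turned to -0.45 with the title letter as a term. Of 9 granule genes, 7 were positive in susceptible over non-defeated, 4 in resilient over non-defeated and 8 in susceptible over resilient mice, with medians of 0.16, -0.16 and 0.20. Vgf, a granule protein and precursor of several peptides, had 116, 105, 52.8 and 60.8 CPM in susceptible, 37.1, 87.4, 27.5 and 76.1 CPM in resilient and 129, 93.3, 77.8 and 98.2 CPM in non-defeated libraries. Resilient replicates 1, 3 and 4 lay below every non-defeated library, and the log2 fold change for resilient over non-defeated mice was -0.92 ± 0.35 (SE) with an adjusted p of 0.591 (limma). The susceptible H libraries, replicates 1 and 2, lay within the non-defeated range, and the susceptible N libraries within the resilient range. Resilient replicate 2, also N, lay among the non-defeated libraries. With the title letter as a term the Vgf fold change for resilient over non-defeated mice was 0.024. Letter and group cannot be told apart in that comparison, and the cause was not tested.

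Substrates of the granule convertases, 25 of 28 neuropeptide precursors, were positive in 7 cases in susceptible over non-defeated mice, in 14 in resilient over non-defeated mice and in 9 in susceptible over resilient mice, with medians of -0.09, 0.08 and -0.16. Tac2, the neurokinin B precursor and a marker of the medial habenula, had 21.2, 30.05, 17.1 and 29.5 CPM in susceptible, 7.51, 8.74, 12.6 and 20.4 CPM in resilient and 32.4, 17.6, 118 and 60.5 CPM in non-defeated libraries. Resilient replicates 1 to 3 lay below every non-defeated library, the log2 fold change for resilient over non-defeated mice was -1.89 ± 0.48 (SE), and the adjusted p was 0.390 (limma). Tac2 is itself 1 of the 9 medial habenula markers. Of these, 7 were lower in resilient than in non-defeated mice, with a median log2 fold change of -1.25, beside 0.02 over all genes. An unadjusted limma p under 0.05 was found there for 3 of them, Tac2 included, against 7.14% of all genes. In susceptible over non-defeated mice 8 of the 9 were lower, with a median of -0.22. Such a p was found there for 0 of them, against 3.54% of all genes. The marker sum overlapped between resilient and non-defeated libraries, and the part of medial habenula RNA in the Tac2 difference was not tested.

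Substrates of the constitutive convertases varied gene by gene. Of 21 growth factor precursors 19 were tested, with 11, 8 and 11 positive and medians of 0.09, -0.09 and 0.14 in the 3 comparisons. Bdnf, a neurotrophin released from its precursor by furin and other convertases, had 28.5, 23.6, 26.9 and 26.8 CPM in susceptible, 9.77, 20.2, 13.2 and 10.6 CPM in resilient and 13.9, 21.1, 12.7 and 15.1 CPM in non-defeated libraries. Its 4 susceptible values all lay above the other 8. The log2 fold change was 0.74 ± 0.27 over non-defeated and 0.98 ± 0.27 over resilient mice (SE), and neither passed (limma, adjusted p = 0.998 and 0.946). Bdnf was named as 1 of the growth factors with the smallest p, so its parting of the groups is a description. Susceptible libraries lay wholly above non-defeated ones for 1.11% and above resilient ones for 1.42% of all genes.

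Of 18 proteases that convertases activate, 17 were tested, and 9, 11 and 4 were positive, with medians of 0.05, 0.20 and -0.15. Adam17, the sheddase of tumour necrosis factor, had 11.4, 4.35, 12.7 and 6.81 CPM in susceptible, 15.9, 12.8, 26.1 and 22.5 CPM in resilient and 32.4, 21.7, 6.97 and 12.5 CPM in non-defeated libraries. Its susceptible libraries lay below all resilient ones, at a log2 fold change of -1.10 ± 0.44 (SE), adjusted p 0.9996 (limma). Adam17 was named for its small p, and 1.03% of all genes parted these groups in that direction. Mmp14, a membrane-bound matrix protease that furin activates, had 25.3, 22.2, 35.2 and 21.2 CPM in susceptible, 34.3, 38.1, 35.1 and 23.0 CPM in resilient and 38.3, 39.4, 12.2 and 7.10 CPM in non-defeated libraries. The non-defeated libraries spanned more than both other groups, and susceptible over non-defeated mice gave 0.38 ± 0.44 (SE), which turned to -0.59 without the 3 libraries of lowest mean correlation with the rest. Mmp2, the gelatinase that Mmp14 activates, had 1.51, 0.0573, 7.75 and 6.21 CPM in susceptible and 2.31, 6.59, 0 and 0.786 CPM in non-defeated libraries, a log2 fold change of 0.48 ± 0.70 (SE). Both high susceptible values are N libraries while all non-defeated libraries are H. The resilient libraries, all N, had 0.824, 1.07, 3.39 and 1.45 CPM. The Mmp2 fold change for susceptible over non-defeated mice turned to -0.67 with the letter as a term or among H libraries alone. The cause was not tested.

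Of 17 receptors and adhesion proteins cut by convertases, 16 were tested, and 8, 12 and 5 were positive, with medians of 0.01, 0.17 and -0.14. Sorl1, a sorting receptor of neurons, stood at 0.64 ± 0.24 in resilient over non-defeated mice (SE), with an adjusted p of 0.584 (limma). Resilient replicates 3 and 4 lay above every non-defeated library, and replicates 1 and 2 lay among them. Sorl1 was named for its small p. Of 15 matrix and perineuronal net genes, 7, 9 and 6 were positive, with medians of 0.00, 0.18 and -0.03. Acan, the aggrecan gene of perineuronal nets, had 366 reads over the 4 susceptible and 41 over the 4 resilient libraries, 9.23-fold more after scaling. It had no read in non-defeated ones, and the susceptible level was about 135-fold the floor of 3 reads pooled over that group. Susceptible replicate 1 had 2 of the 366 reads. The log2 fold change for susceptible over non-defeated mice was 1.56 ± 0.42 (SE), adjusted p 0.998 (limma). Susceptible libraries lay wholly above non-defeated ones for Acan and for 1.11% of all genes. The authors' deposited FDR for Acan over the 3 groups was 0.011, and 0.293% of genes had an FDR under 0.05. Has3, a hyaluronan synthase, was at 0.229, 1.72, 1.02 and 4.30 CPM in susceptible and 0.0458, 0, 0.0468 and 0.164 CPM in resilient libraries. These did not overlap, at 1.20 ± 0.44 (SE), adjusted p 0.9996 (limma), but the resilient libraries held only 0 to 6 reads. Non-defeated libraries, at 0.649, 0, 0 and 2.05 CPM, overlapped the susceptible ones. Has3 was named for its small p, and 1.42% of all genes had susceptible libraries wholly above resilient ones.

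Downstream of Mbtps1, 0 sterol genes and 0 ATF6 targets passed the limma threshold, and single sterol genes ran from -1.18 to 1.34 (log2). Of the 14 substrates and partners of the site-1 protease, 9, 7 and 9 were positive in the 3 comparisons, with medians of 0.06, 0.04 and 0.11. The sterol regulator Srebf2 stood at -0.46 ± 0.19 in resilient over non-defeated mice (SE), and at -0.17 with the letter as a term. Of 17 sterol synthesis genes, 15 were positive in susceptible over non-defeated and 14 in resilient over non-defeated mice, which share the non-defeated libraries, and 10 in susceptible over resilient mice, against 52.2%, 52.8% and 47.9% of all genes, with medians of 0.16, 0.09 and 0.07. Msmo1, a sterol demethylase, had 292, 322, 334 and 279 CPM in susceptible, 292, 282, 276 and 231 CPM in resilient and 255, 260, 223 and 219 CPM in non-defeated libraries. Its susceptible libraries lay above all non-defeated ones, at 0.36 ± 0.13 (SE), with an adjusted p of 0.998 (limma). Msmo1 was named for its small p, and 1.11% of all genes parted these groups in that direction. Of 15 ATF6 targets, 11, 11 and 7 were positive, with medians of 0.08, 0.05 and -0.03, and the chaperone gene Dnajc3 stood at 0.41 ± 0.17 in susceptible over non-defeated mice (SE).

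**Figure D5:**
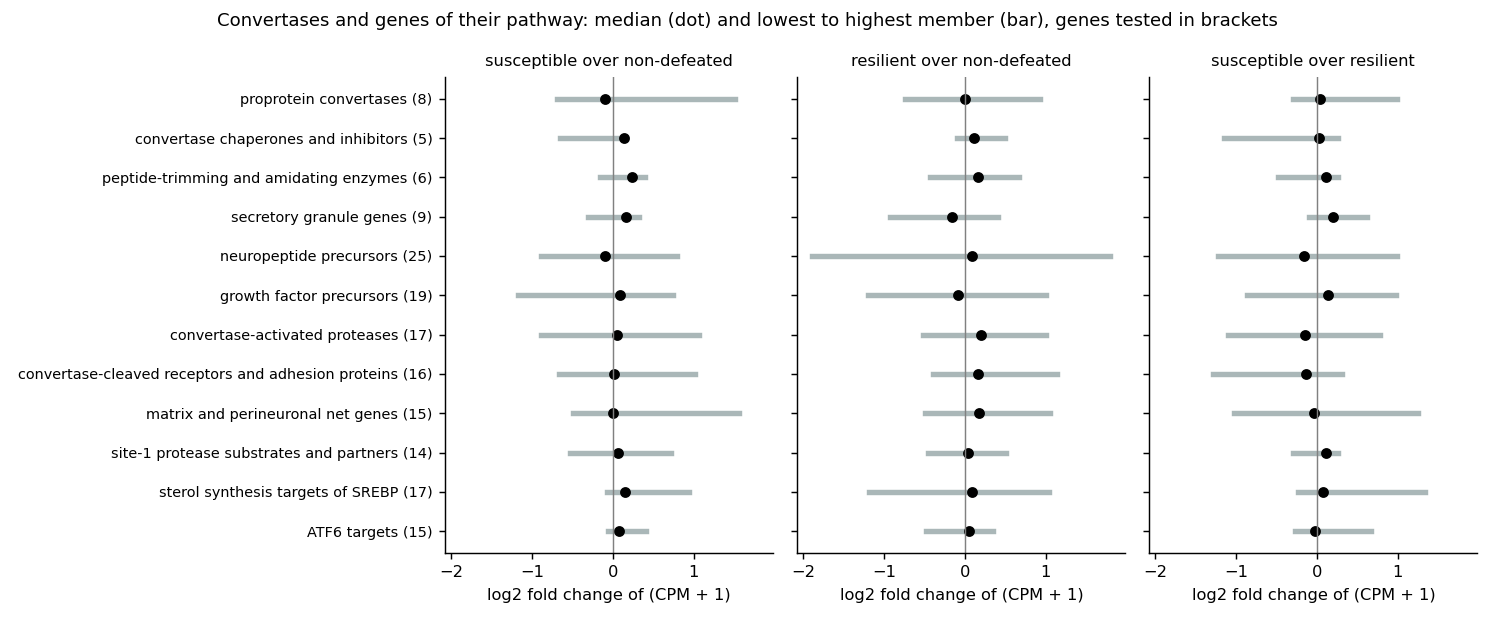
Median (dot) and range from the lowest to the highest member (bar) of the log2 fold change of (CPM + 1) (x axis) for the convertases and 11 lists of their pathway (y axis, number of genes tested in brackets) in the 3 comparisons. Medians lie between -0.16 and 0.23, and single members reach past 1 in either direction.

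The genes most like Pcsk5 over the 12 libraries were sought among 11506 genes averaging at least 5 CPM, by Pearson's r of log2 (CPM + 1). They were Zmat1 (r = 0.831), Fbxo27 (r = 0.818), Trnau1ap (r = 0.811), Prmt8 (r = 0.807) and 1600020E01Rik (r = 0.775). Prmt8, a brain arginine methyltransferase, averaged 51.5 CPM in susceptible, 43.2 CPM in resilient and 34.8 CPM in non-defeated libraries, the same order as Pcsk5. The genes most opposed to it were Gm2163 (r = -0.902), Gm3883 (r = -0.876), the mismatch repair gene Pms2 (r = -0.859), Btbd3 (r = -0.833) and Elac1 (r = -0.832). Elac1, which processes transfer RNA ends, averaged 25.2 CPM in susceptible, 29.6 CPM in resilient and 47.8 CPM in non-defeated libraries. All points share the same libraries, depth and groups, and with 12 points and so many genes compared, values of this size describe these libraries only.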

How the data were processed

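RNA-seq of punched lateral habenula gave 12 libraries, 4 in each of 3 groups taken from the labels. The deposited behaviour sheet lists 12 mouse IDs that match the 12 libraries one to one, so each library stands for its own mouse. Per the labels' protocols, 100 pg of RNA entered a SMART-Seq v4 kit. The submitters' processing notes name featureCounts, edgeR and the build GRCm38 (mm10). Which aligner they ran, and whether counting used strand, is not given in the sources used here.

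Per the file headers the deposited columns are read counts, but their values are CPM plus a constant of 0.00608. After its removal 100% of values were whole reads within 0.001 read, and those reads were used where a test needs counts. The authors also deposited log2 ratios, a score (likelihood ratio) with its p-value and FDR, a correlation with its p-value, and an interaction ratio for each mouse. The table held 17416 genes after removal of 1 line without a gene; 17402 matched GENCODE M21, and 14 did not.

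The main test was limma-trend (limma 3.58.1, robust, R 4.3.3) on log2 of TMM-scaled CPM (edgeR 4.0.16) plus 1, a model of group means over all 12 libraries. The filter (filterByExpr, minimum count 10) left 17111 genes, and all 8 convertases passed it. A Benjamini-Hochberg adjusted p under 0.05 over all of them was called. On simulated data made from these libraries' levels it recovered 60%, 57% and 63% of genes changed 4-fold and 16%, 6% and 17% of those changed 2-fold, over 16544, 16514 and 16507 genes for susceptible against non-defeated, resilient against non-defeated and susceptible against resilient mice. Of the genes called there, 9.52%, 1.56% and 5.88% were unchanged ones. The changed genes, 100 for each fold, averaged at least 1 CPM and were all raised in the group named first.

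The members and lists were chosen with earlier results of these data known. Named genes were the members, up to 3 genes with the smallest p over the 3 groups in each list, Mmp2, Mmp14 and Acan, and the 5 genes most like and most opposed to Pcsk5; 1 further gene of this rule is not reported here. Overlaps and lengths came from GENCODE M21. Promoter windows and their sequences came from RefSeq (GRCm38.p6), and the bases after each start were found in an annotated transcript for all but 1 of the 2 Furin windows. Alternatives were other scalings, pseudocounts and filters, no robust step, edgeR, DESeq2 1.42.0, fewer groups or libraries, the title letter and a replicate block.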

Additional observations from a re-analysis of the deposited data

Results flagged for a closer look

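In 24 groups of 4 libraries, 1 for each convertase gene and group, 2 held a library set far from the other 3 for the group's range (Dixon's test at 95%). Chance flags about 1 in 20 groups. Pcsk5 stood at 8.60 CPM in non-defeated replicate 1, and at 5.12 to 5.55 CPM in the other non-defeated libraries. Pcsk1 stood at 19.8 CPM in non-defeated replicate 4, and at 13.996 to 14.8 CPM in the other non-defeated libraries. Non-defeated replicate 4 was also 1 of the 3 libraries with the lowest mean correlation with the rest.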

How the results depend on the processing

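Of 24 convertase fold changes, 3 for each gene, 12 kept their direction in every alternative run and 12 turned in at least 1; none passed the threshold in any, the lowest adjusted p being 0.0595 (Pcsk5, DESeq2). Pcsk5 in susceptible over non-defeated mice stayed between 1.22 and 1.74 (log2) over all alternatives. With the title letter as a term, resilient over non-defeated mice turned to -0.0074 for Pcsk1, -0.059 for Pcsk5, 0.29 for Mbtps1, -0.45 for Cpd, 0.024 for Vgf and -0.53 for Edn1; Mbtps1 turned to 0.14 in susceptible over non-defeated and -0.16 in susceptible over resilient mice, with 0.13 and -0.16 within 1 letter. Mmp2 in susceptible over non-defeated mice turned to -0.67 under both. Without the 3 libraries of lowest mean correlation, susceptible over non-defeated mice turned to 0.022 for Pcsk1, 0.023 for Pcsk2, -0.48 for Mmp2 and -0.59 for Mmp14, and susceptible over resilient mice to -0.045 for Mbtps1, which was -0.022 with no scaling. The cause was not tested for these.

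Leaving out 1 library at a time, susceptible over non-defeated mice ran from -0.43 to 0.031 for Pcsk6, -0.20 to 0.055 for Mbtps1 and -0.066 to 0.71 for Mmp14, and resilient over non-defeated mice from -0.073 to 0.22 for Pcsk2 and -0.24 to 0.031 for Mbtps1. Susceptible over resilient mice ran from -0.21 to 0.38 for Furin, -0.23 to 0.054 for Pcsk4, -0.042 to 0.34 for Pcsk7 and -0.13 to 0.19 for Mbtps1.

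The counts of all genes past the threshold were 0 for susceptible against non-defeated, 1 for resilient against non-defeated, 8 for susceptible against resilient mice and 1 over the 3 groups. They were 23, 88, 38 and 45 by DESeq2, and 0 in the last 3 by edgeR or without the robust step. The counts for resilient against non-defeated mice and over the 3 groups were 2 with no filter, with at least 1 CPM, with no scaling and with RLE factors, and 0 with the letter term or without the 3 libraries. With only the groups compared, those for resilient against non-defeated and susceptible against resilient mice were 0. Susceptible against resilient mice gave 1 with a pseudocount of 0.5, 0 within 1 letter and 2 without the 3 libraries. Leaving out 1 library gave 0 to 9, 0 to 10 and 0 to 7 in the last 3.

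Same-numbered libraries did not pair: their deviations correlated at -0.194 to 0.127. With the replicate block Pcsk5 in susceptible over non-defeated mice stayed at 1.50 ± 0.41 (SE) with an adjusted p of 0.998 (limma), and the counts of all genes in the last 3 were 0; 2 of 12 libraries correlated best with their own number. Per kilobase of the longest transcript, levels of Pcsk2 and Mbtps1 were 25.5 and 13.8 CPM. Depth limits the scarce genes, such as Acan with 0 to 155 reads a library.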
